A study of Mus musculus with 20 samples.

Results

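Cells labelled as overexpressing Foxk1 were set against cells carrying the matching empty vector, with 3 RNA-seq libraries on each side. The 6 libraries are the 6 columns of the deposited table that bear these labels, out of 20 libraries in 8 groups. A gene was tested where its level reached 0.5 RPKM in at least 2 of the 6, which kept 14279 of 48440 genes. RPKM is the read count of a gene scaled to its exon length and to the size of the library. Unless a unit is given, a value beside a gene is its log2 fold change, labelled over control libraries, on the log2(RPKM + 0.5) scale, which understates changes of low genes, and a value after ± is a standard error.

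Every library came from 3T3-L1, a preadipocyte line from Swiss mouse that turns into fat cells in culture. Cells were differentiated with troglitazone (10 µM), dexamethasone (1 µM), insulin (5 µg/ml) and IBMX (0.5 mM, a phosphodiesterase inhibitor), were moved to insulin alone at day 4 and to plain growth medium at day 6. The labelled group carries a construct for lasting expression of a gene that the labels spell FOXK1, with no promoter and no species of the sequence given, and its controls carry the empty vector. Also used here, for comparison, are Foxk1 knockdown with Foxk1 shRNA (3 libraries) against scrambled shRNA (3 libraries), and Foxk2 overexpression (2 libraries) against its own empty vector (2 libraries). The published study of these cells concerns glucose use, so counts of glycolysis genes are not independent evidence of their direction.

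Foxk1 and Foxk2 are paralogous forkhead transcription factors that bind DNA and recruit the Sin3 co-repressor complex. They are known for control of glucose metabolism, autophagy and growth downstream of insulin and mTOR signalling. In fat cells insulin drives glucose entry through the Slc2a4 carrier (GLUT4), and the carbon serves glycolysis, lactate release and the assembly of stored lipid.

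The targeted gene was not raised. Foxk1 (ENSMUSG00000056493.9, chr5:142401497-142462011 in mm10) had 6.16, 6.06 and 6.08 RPKM in the labelled libraries, against 7.11, 7.48 and 8.04 RPKM in the control libraries. Each labelled library lay below each control library (log2 fold change -0.28 ± 0.0535 SE, adjusted p = 0.00503, limma with Benjamini-Hochberg adjustment over all genes tested). In Foxk1 knockdown the same gene fell (-1.23). Foxk2 had 14.1, 13.99 and 13.5 RPKM in the labelled libraries, against 11.4, 11.5 and 10.9 RPKM in the control libraries, with the groups apart (log2 fold change 0.29 ± 0.0399 SE, adjusted p = 0.00133). Of the 20 measured genes of the Foxk family and the Sin3 complex, 5 rose and 2 fell (median 0.06). The Sin3 subunit gene Sap30 rose most, with 3.86, 3.91 and 3.55 RPKM in the labelled libraries, against 1.04, 1.76 and 1.54 RPKM in the control libraries (log2 fold change 1.15 ± 0.141 SE, adjusted p = 0.000746). Ing2, another subunit gene, rose by 0.30, and Arid4a, which encodes a Sin3 partner, fell (-0.20). The table lists mouse gene models only, so a construct transcript of another species or of altered sequence may not be counted under Foxk1. Whether a construct transcript or more Foxk1 protein was present was not tested, so the libraries are called labelled libraries below.

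The labelled libraries held 18676944 to 19976807 assigned reads and the control libraries 17328261 to 18769883, of which mitochondrial genes took 4.91 to 5.26% in labelled and 4.91 to 5.22% in control libraries. No label ties replicates to different cultures, and p-values therefore speak of library spread, which may be technical. The first principal component of the 6 libraries held 63.4% of the variance and parted the labelled libraries (26.0 to 27.4) from the control libraries (-30.4 to -22.3). The second held 10.2% and set control replicate 2 (-22.0) apart from the labelled libraries (0.0996 to 1.60) and from the other control libraries (6.45 and 12.8). Without that library 2979 genes were higher and 2861 lower, and Foxk1 stood at -0.29.

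The adipocyte markers were checked first. The summed level of the 20 listed adipocyte hallmark genes was 11263 to 11328 RPKM in labelled and 16220.0 to 16584 RPKM in control libraries. Of the 18 genes tested among them 10 fell and 4 rose. Fabp4, a fatty acid carrier chosen after its values were seen, had 1667, 1534 and 1530.0 RPKM in the labelled libraries, against 1781, 1648 and 1613 RPKM in the control libraries, and did not pass the test (-0.09, adjusted p = 0.213). Markers of other cell types were low: summed levels were 4.94 to 5.54 RPKM in labelled and 6.42 to 7.14 RPKM in control libraries for 13 macrophage markers, with Itgam and Tyrobp at 0 in all 6 libraries. For 11 endothelial markers the sums were 1.12 to 1.26 RPKM and 1.55 to 1.79 RPKM in labelled and control libraries (Kdr and Cldn5 at 0). For 12 neuronal and glial markers they were 1.29 to 2.15 RPKM in labelled and 3.45 to 4.32 RPKM in control libraries (Rbfox3 and Nefl at 0). The sums were higher in labelled libraries for 18 skeletal muscle markers (11.03 to 12.1 against 7.14 to 8.04 RPKM, with Myod1, Myog, Myf5, Myh1, Myh8 and Pax7 at 0), for 15 osteoblast and chondrocyte markers (13.8 to 14.3 against 11.1 to 11.4 RPKM, Matn1 at 0) and for 11 epithelial markers (4.31 to 5.29 against 2.35 to 2.87 RPKM, none at 0 in all 6). Single genes carried most of 2 of these sums. Des had 9.62 to 10.9 RPKM in labelled and 6.09 to 6.77 RPKM in control libraries, and Krt18 3.67 to 4.52 and 1.94 to 2.40 RPKM. Among osteoblast and chondrocyte markers, Ibsp had 4.02 to 4.25 against 0.645 to 1.00 RPKM, while Runx2 and Comp were lower in each labelled library. Members of the lists of other cell types that passed the test were Cd14 (-1.08), Egfl7 (-0.53), S100b (-1.45), Des (0.65), Ibsp (1.75), Alpl (0.97) and Krt18 (0.74). Actn3 and Sox9 fell (-0.76 and -0.30) and Chad rose (0.47). The part of such cells in the results was not tested, and in bulk RNA fewer cells of a type and less RNA per cell cannot be told apart.

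Of the 14279 genes tested 6364 changed, or 44.6%, at an adjusted p under 0.05 in limma. Of these 3314 were higher (23.2% of genes tested) and 3050 lower (21.4%). At least 2-fold changes were fewer and mostly downward, with 164 higher (1.15%) and 398 lower (2.79%). The median log2 fold change over all genes tested was 0.01, and the ranges of the 2 groups lay apart for 56.1% of genes. In the gene lists below, members counted neither as risen nor as fallen did not pass the test. A share of list members near these percentages is no result about that list. The share called grew with level, being 24.3% among genes under 1 RPKM and 72.7% among those at 100 RPKM or more.

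Among protein-coding genes with neither a predicted (Gm) nor a clone (Rik) name, to which the lists of the 25 largest rises and the 25 largest falls are limited, Cidea, Elovl3 and Adm2 had the largest rises. Cidea, whose protein coats lipid droplets and which marks brown fat, had 31.3, 30.6 and 32.6 RPKM in the labelled libraries, against 3.02, 3.52 and 3.84 RPKM in the control libraries. No library of one group came near the other (log2 fold change 3.02 ± 0.0782 SE, adjusted p = 3.12e-06). Elovl3, an elongase of very long fatty acids, had 13.98, 13.7 and 12.6 RPKM in the labelled libraries, against 1.43, 2.05 and 1.39 RPKM in the control libraries, and the groups were again far apart (log2 fold change 2.73 ± 0.118 SE, adjusted p = 1.31e-05, ENSMUSG00000038754.4, chr19:46131897-46135694). Adm2, which encodes a secreted peptide of the calcitonin family, had 3.29, 3.46 and 3.96 RPKM in the labelled libraries, against 0.204, 0.332 and 0.153 RPKM in the control libraries (log2 fold change 2.48 ± 0.123 SE, adjusted p = 1.89e-05). Its control values lie below the pseudocount, so the fold is understated. Pde4d, which encodes an enzyme that breaks down cAMP, rose as well (1.67).

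Gfra1, a receptor subunit for GDNF, had 5.37, 5.27 and 4.98 RPKM in the labelled libraries, against 0.662, 0.653 and 0.564 RPKM in the control libraries, with no overlap. Ddit4, which encodes an inhibitor of mTORC1, had 99.6, 111 and 112 RPKM in the labelled libraries, against 19.8, 31.4 and 23.6 RPKM in the control libraries, and control replicate 2 was the highest of its group. Chchd10, which encodes a mitochondrial intermembrane protein, had 21.1, 23.1 and 21.7 RPKM in the labelled libraries, against 3.92, 4.98 and 4.54 RPKM in the control libraries. These 3 rose by 2.34 ± 0.0719, 2.11 ± 0.152 and 2.18 ± 0.0825 (log2, SE). Enzyme genes among the 25 largest rises were Aspg, an asparaginase (2.24), Soat2, which esterifies cholesterol (2.03), Car6, a secreted carbonic anhydrase (1.98), the cytochrome P450 gene Cyp2b10 (1.93) and the lipid phosphatase gene Inpp4b (1.76). To these add Ak4, a mitochondrial adenylate kinase (1.69), Elovl6, another elongase (1.48), Akr1b7, of the aldose reductase family (1.46) and Tgm2, a transglutaminase (1.45). Others were the calcium pump gene Atp2a3 (2.07), the stress cytokine gene Gdf15 (1.86), Gchfr, which restrains the making of tetrahydrobiopterin (1.76), the bone matrix gene Ibsp, Sh3tc2 (1.68), the keratin gene Krt79 (1.66), the formin gene Fmnl3 (1.58) and Steap1 (1.46).

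Clec3b, Ogn, Itgbl1 and Ptn had the largest falls. Clec3b, which encodes the plasminogen-binding tetranectin, had 3.52, 3.24 and 3.17 RPKM in the labelled libraries, against 65.4, 55.3 and 60.8 RPKM in the control libraries. Every labelled library was far below every control library (log2 fold change -4.000 ± 0.0693 SE, adjusted p = 1.26e-06, ENSMUSG00000025784.4, chr9:123150946-123157432). Ogn, a proteoglycan gene, had 4.79, 4.34 and 4.09 RPKM in the labelled libraries, against 78.97, 67.1 and 69.4 RPKM in the control libraries (log2 fold change -3.88 ± 0.0767 SE, adjusted p = 1.58e-06). The growth factor gene Ptn had 25.7, 21.96 and 21.7 RPKM in the labelled libraries, against 294, 209 and 276 RPKM in the control libraries, and control replicate 2 was the lowest of its group. Its fall was -3.45 ± 0.132.

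Gas6, a ligand of the TAM receptor kinases, had 39.9, 44.5 and 39.1 RPKM in the labelled libraries, against 298, 278 and 309 RPKM in the control libraries. Apod, a lipocalin gene, had 24.02, 21.2 and 23.4 RPKM in the labelled libraries, against 166, 171 and 163 RPKM in the control libraries. Fstl1, which encodes a secreted glycoprotein, had 16.5, 15.5 and 16.6 RPKM in the labelled libraries, against 128, 104 and 114 RPKM in the control libraries. In each of these 3 the groups did not overlap, and the log2 fold changes were -2.83, -2.84 and -2.79. The platelet-derived growth factor receptor gene Pdgfra fell (-2.68) and the related Pdgfrl (-2.63). Inhibitors of Wnt signalling fell as well, Sfrp2 (-2.84) and Apcdd1 (-2.56). So did the chemokine gene Cxcl12 (-2.36), the cadherin gene Cdh11 (-2.50), the complement protease gene C1s1 (-2.45) and the integrin-like Itgbl1 (-3.48). Others of the 25 were Pi15 (-3.40), Scara3 (-2.96), the ribonuclease gene Ear2 (-2.92), Lum (-2.74), Dcn (-2.73), Pgm5 (-2.67), Srpx2 (-2.63), Gdpd2 (-2.61), Sned1 (-2.38) and Islr (-2.36).

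**Figure D1:**
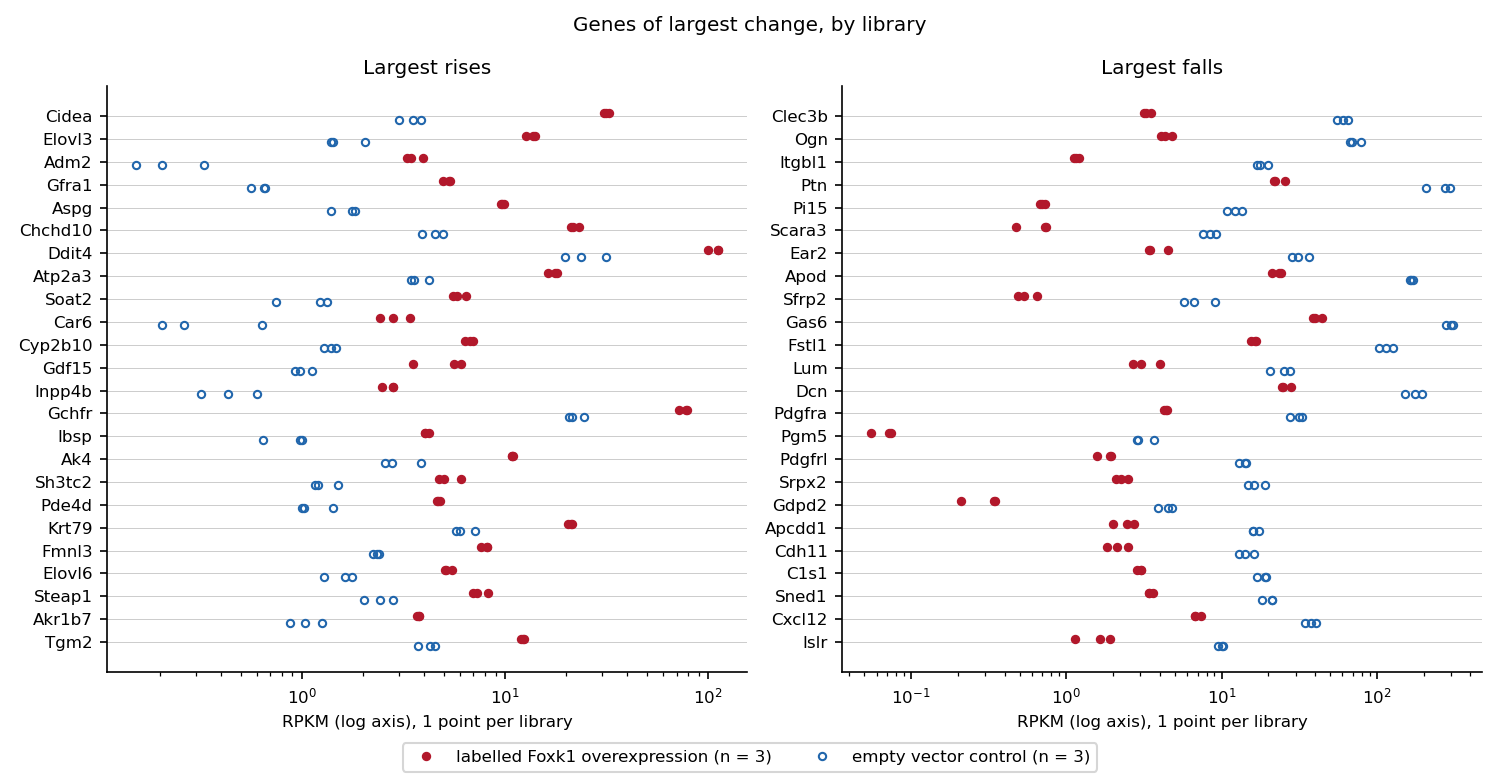
RPKM on a log axis in each of the 6 libraries for genes of large rise (left) and large fall (right), with points for labelled and control libraries. Cidea sits between 30.6 and 32.6 RPKM in labelled libraries, against 3.02 to 3.84 in control libraries, and Clec3b between 3.17 and 3.52, against 55.3 to 65.4.

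The 10 nuclear protein-coding genes of highest level in labelled libraries moved by less. Scd1, the main fatty acid desaturase, had 6409.6, 6237 and 6381 RPKM in the labelled libraries, against 8032, 8982 and 7914 RPKM in the control libraries and fell (-0.39 ± 0.0580), a sign that turned under quantile normalization (0.04, adjusted p = 0.836). The ferritin genes Fth1 and Ftl1 did not pass the test (-0.11 and 0.02), and Ftl1 shares its sequence with 5 other genes. The lipoprotein lipase gene Lpl fell (-0.24). Rplp1 rose by 0.38, Cox6a1 by 0.37, Mt1 by 0.24, Eef1a1 by 0.19 and Cox8a by 0.12, and Cfd, described below, fell.

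**Figure D2:**
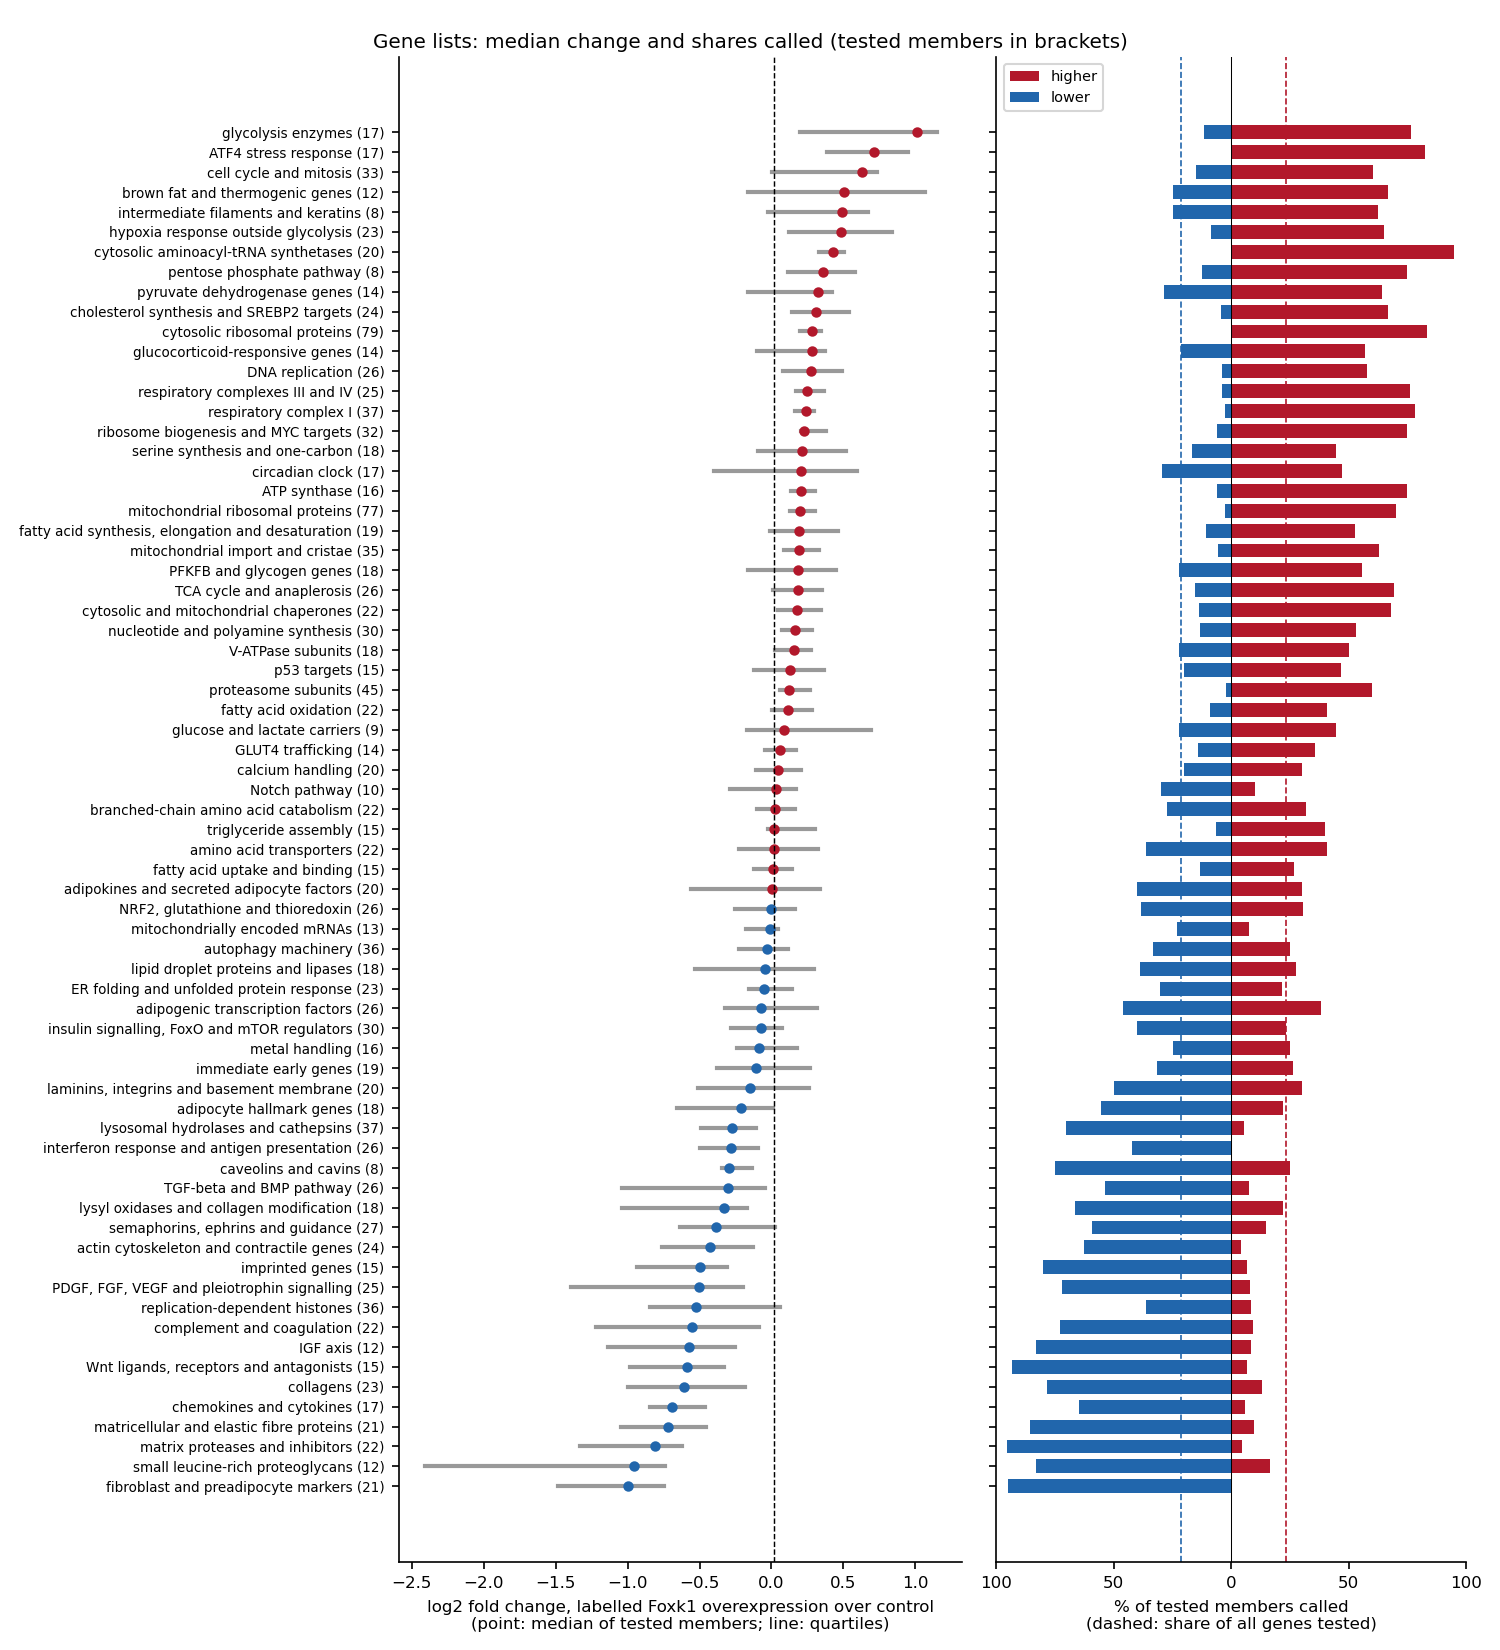
Median log2 fold change of the measured members of each gene list drawn, labelled over control libraries. A line marks the quartiles, and the number tested is in brackets. Beside it stands the percent of tested members higher and lower and, dashed, the same over all genes tested. Left out are the Foxk and Sin3 list, the lists of other cell types, and glyceroneogenesis and glycerol handling. Glycolysis enzymes stand at the top with a median of 1.01, and fibroblast and preadipocyte markers at the bottom with -0.99.

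Enzymes of glycolysis were higher. Of 17 measured genes 13 rose and 2 fell (median 1.01). The summed level of all 18 listed genes was 4589 to 4822 RPKM in labelled and 2086 to 2505 RPKM in control libraries. Ldha, which turns pyruvate into lactate, had 596, 618 and 628 RPKM in the labelled libraries, against 235, 308 and 251 RPKM in the control libraries. Pgk1, which makes ATP from bisphosphoglycerate, had 773, 759 and 835 RPKM in the labelled libraries, against 318, 381 and 306 RPKM in the control libraries. The groups did not overlap in either gene, and control replicate 2 was the highest control in both (log2 fold change 1.22 ± 0.0949 SE, adjusted p = 0.000101 for Ldha, 1.24 ± 0.0848 for Pgk1). Hk2, the hexokinase that commits glucose, had 88.7, 90.6 and 90.6 RPKM in the labelled libraries, against 40.97, 48.3 and 41.3 RPKM in the control libraries and rose by 1.04 ± 0.0645. Gapdh rose by 1.29, Pgam1 by 1.19, Tpi1 by 1.15, Pfkl by 1.04, Aldoa by 1.02 and Pkm by 0.97. Ldhb, the lactate dehydrogenase subunit of oxidative tissue, and the muscle enolase gene Eno3 fell (-0.39 and -0.36). Near-identical copies cover 68.8% of the Pgk1 transcript, 43.1% of Pgam1 and 35.5% of Gapdh, so these values are uncertain. Hk2, Tpi1, Pfkl, Aldoa and Pkm were named after their values were seen.

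Genes that respond to low oxygen, outside glycolysis, were mostly higher. Of 23 measured genes 15 rose and 2 fell (median 0.48). Besides Ddit4 and Ak4, Ankrd37 rose by 1.26. Ero1l, which drives disulfide formation, had 452, 419.5 and 427 RPKM in the labelled libraries, against 166, 242 and 167 RPKM in the control libraries, without overlap, and control replicate 2 was again the highest of its group (log2 fold change 1.20 ± 0.141 SE, adjusted p = 0.000628). Egln3, an oxygen-sensing prolyl hydroxylase, had 53.96, 53.7 and 54.6 RPKM in the labelled libraries, against 25.6, 35.8 and 25.2 RPKM in the control libraries (0.91 ± 0.127). The mitophagy receptor gene Bnip3 rose by 0.49 and the angiogenic factor gene Vegfa by 0.45. Some members fell. The vasodilator peptide gene Adm had 4.50, 3.99 and 3.55 RPKM in the labelled libraries, against 13.4, 12.3 and 12.9 RPKM in the control libraries, and fell (-1.57 ± 0.0812). Epas1, which encodes an oxygen-regulated transcription factor, fell (-0.66), and Hif1a did not pass (0.10, adjusted p = 0.253). Hif1a, Ero1l, Egln3 and Bnip3 were named after their values were seen.

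The core of the hypoxia response element, ACGTG read on either strand, lies in the 250 bases before the start of 10 of 20 hypoxia genes with a promoter entry (50%) and of 5 of 18 glycolysis genes (27.8%). It also lies there in 5 of 12 synthetase genes (41.7%), described below, and in 4 of 12 genes of small leucine-rich proteoglycans (33.3%), a list of genes that were mostly lower. Among all 8798 tested protein-coding genes with an entry the share was 22.6%. Windows of 60 bases that hold the letters, from RefSeq on GRCm38.p6 (the assembly that mm10 names), are shown for members that rose, written on the strand of the gene with the letters of either strand in capitals.
Ldha (chr7:46845740-46845799, plus strand): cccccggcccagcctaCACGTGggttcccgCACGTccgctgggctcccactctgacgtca
Pgk1 (chrX:106186932-106186991, plus strand): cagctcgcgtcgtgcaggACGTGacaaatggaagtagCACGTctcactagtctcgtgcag
Bnip3 (chr7:138909582-138909641, minus strand): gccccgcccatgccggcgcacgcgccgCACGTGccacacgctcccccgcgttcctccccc
Ddit4 (chr10:59951926-59951985, minus strand): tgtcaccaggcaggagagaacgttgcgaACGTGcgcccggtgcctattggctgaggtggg
Egln3 (chr12:54204065-54204124, minus strand): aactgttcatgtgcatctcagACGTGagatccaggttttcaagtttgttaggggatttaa
In Ldha and Bnip3 the palindrome CACGTG holds the core on both strands, so such matches overlap. A match describes the letters of the window and not a bound site.

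Carriers of glucose and lactate divided. Of 9 measured genes 4 rose and 2 fell (median 0.09). Slc2a1, the basal glucose carrier gene, had 30.99, 33.4 and 33.8 RPKM in the labelled libraries, against 15.9, 18.6 and 17.5 RPKM in the control libraries, with the groups apart (log2 fold change 0.90 ± 0.0639 SE, adjusted p = 7.13e-05). The insulin-responsive Slc2a4 had 94.4, 96.8 and 94.2 RPKM in the labelled libraries, against 61.6, 73.3 and 62.8 RPKM in the control libraries, also apart (0.53 ± 0.0663). The lactate carrier gene Slc16a1 rose by 0.79, while Slc2a13, a carrier of myo-inositol, and Slc2a10 fell (-0.91 and -0.41). Genes of GLUT4 trafficking gave 5 rises and 2 falls among 14 genes (median 0.06). Trarg1, which regulates GLUT4 trafficking, rose by 1.02 and Tbc1d1 by 0.28, whereas Sort1 and the GLUT4 vesicle protein gene Lnpep fell (-0.62 and -0.27).

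Glycogen genes, and those at the branch points below pyruvate, moved both ways. Of 18 glycogen and PFKFB genes 10 rose and 4 fell (median 0.19). The glycogen-binding Stbd1 rose (1.44), as did Ppp1r3b, which brings a phosphatase to glycogen (1.15), and the synthase gene Gys1 (0.69). The phosphorylase genes Pygl and Pygb fell (-0.85 and -0.55), with Gyg (-0.33) and Ppp1r3c (-0.25). Pdk1, a kinase that inhibits pyruvate dehydrogenase, had 31.2, 30.4 and 31.7 RPKM in the labelled libraries, against 13.3, 15.2 and 12.4 RPKM in the control libraries. Pdp1, the phosphatase that opposes it, had 3.11, 2.87 and 3.08 RPKM in the labelled libraries, against 10.4, 8.57 and 9.89 RPKM in the control libraries. Neither gene had overlapping groups, and they moved in opposite directions (1.16 ± 0.0711 for Pdk1 and -1.52 ± 0.0767 for Pdp1). Of all 14 pyruvate dehydrogenase genes 9 rose and 4 fell (median 0.32). The pyruvate carrier gene Mpc1 rose by 0.52, with 35.7% of its transcript in copies, and Pdk3, Pdpr and Pdk2 fell (-0.78, -0.38 and -0.24).

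In the pentose phosphate pathway, which yields NADPH and ribose, 6 of 8 genes rose and 1 fell (median 0.36). Tkt rose by 0.87, Rpe by 0.70, Pgd by 0.54 and Taldo1 by 0.52, and H6pd, which acts inside the endoplasmic reticulum, fell (-0.48). Of 26 genes of the TCA cycle and anaplerosis 18 rose and 4 fell (median 0.19). Idh3a, of the NAD-linked isocitrate dehydrogenase, had 233, 234 and 230.5 RPKM in the labelled libraries, against 117, 133 and 114 RPKM in the control libraries, without overlap (0.94 ± 0.0589). Glud1 (0.64), Sdhb (0.53) and Me1 (0.49) rose, and the NADP-linked Idh1 and Idh2 and the malic enzyme gene Me2 fell (-0.16, -0.27 and -0.42). Glyceroneogenesis and glycerol handling had 3 rises and 3 falls among 7 genes (median 0.25). Pck2, Gk and Gpd2 rose (0.66, 0.65 and 0.50), and the glycerol channel gene Aqp7, Gpd1l and Gpd1 fell (-0.73, -0.43 and -0.13).

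**Figure D3:**
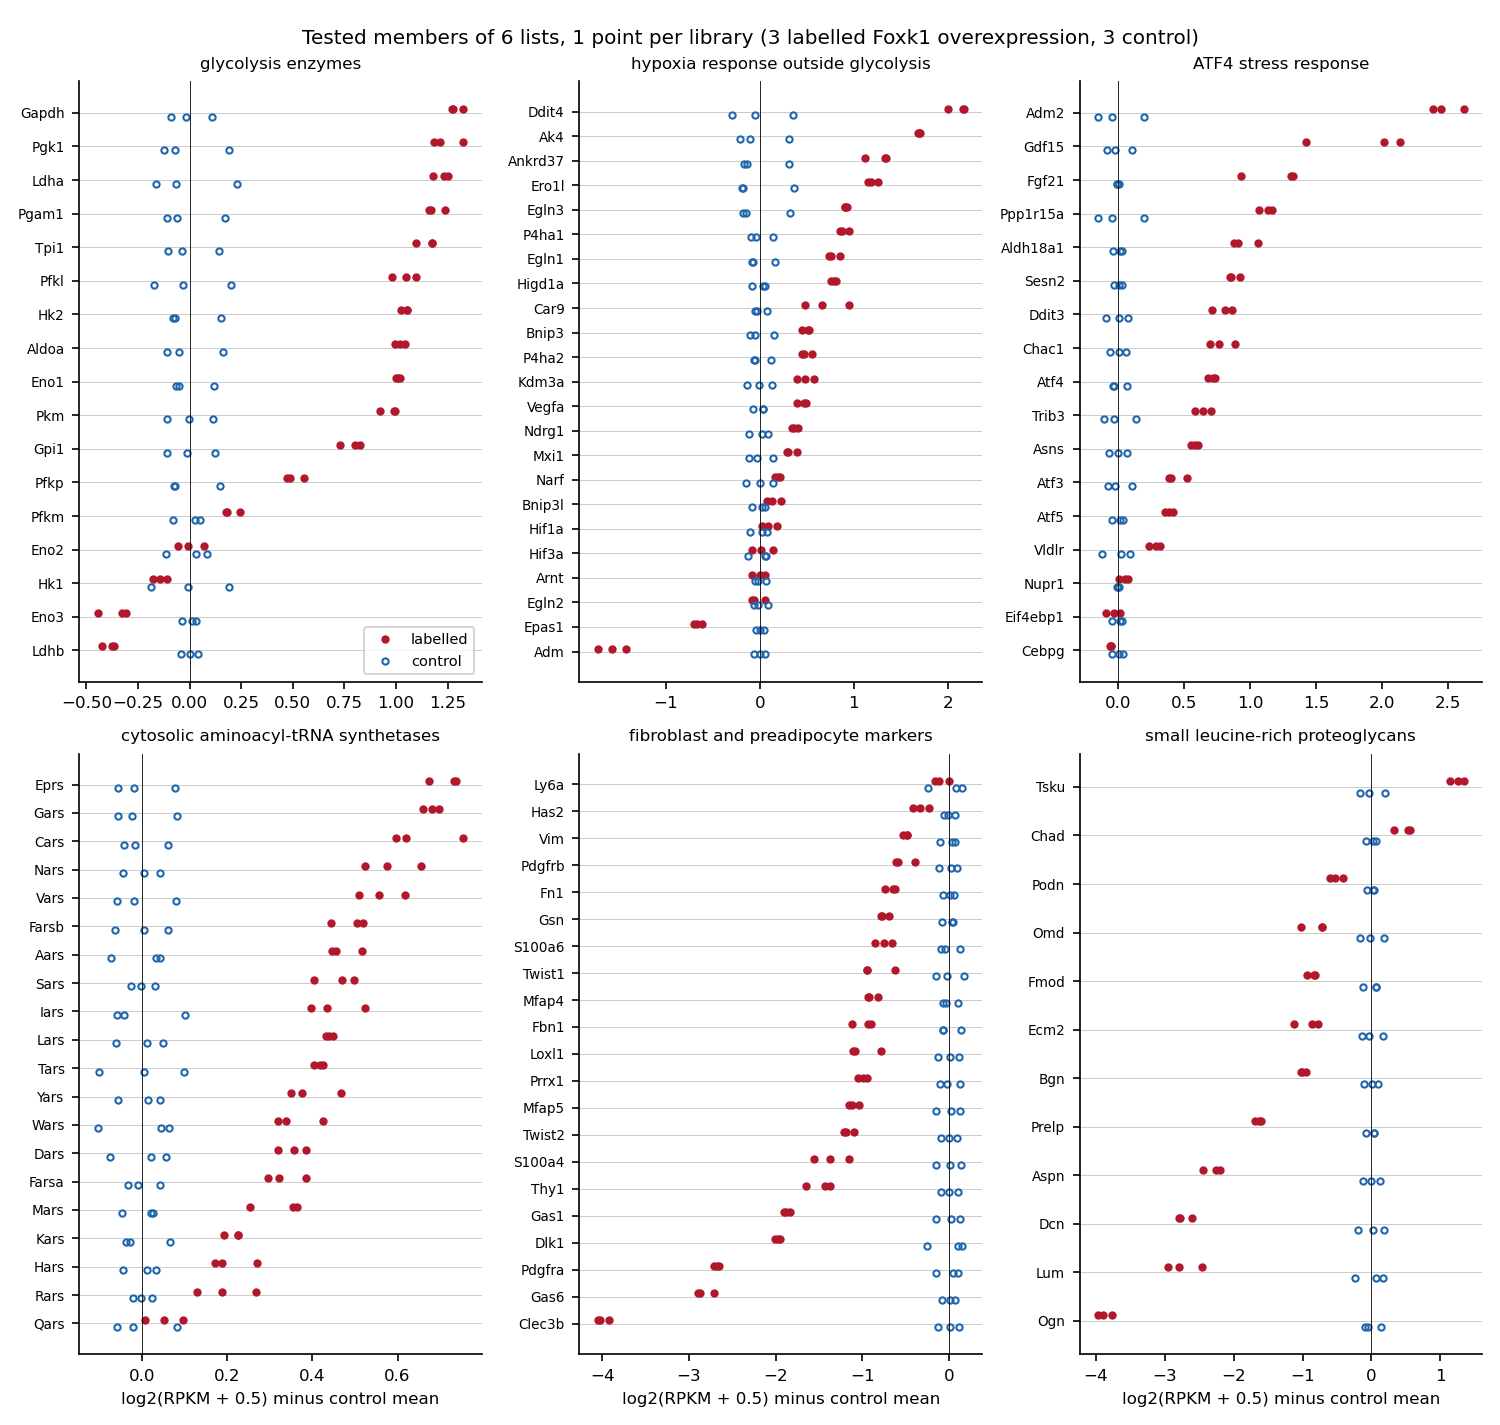
Log2(RPKM + 0.5) in each of the 6 libraries minus the mean of the control libraries, for the tested members of 6 gene lists, with points for labelled and control libraries. Glycolysis, ATF4 response and synthetase genes lie mostly to the right of their controls, and fibroblast markers and proteoglycans mostly to the left, with Clec3b farthest out at a fold change of -4.000.

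The integrated stress response is run by Atf4, a transcription factor made when translation initiation is curbed or amino acids are short, and it raises genes of amino acid supply and tRNA charging. Of 17 measured genes of this response 14 rose and 0 fell (median 0.71). Atf4 itself had 285, 295 and 293 RPKM in the labelled libraries, against 174, 186 and 174 RPKM in the control libraries, with the groups apart (log2 fold change 0.71 ± 0.0379 SE, adjusted p = 2.42e-05). Asns, which makes asparagine, had 115, 112 and 116 RPKM in the labelled libraries, against 76.2, 79.7 and 72.7 RPKM in the control libraries and rose by 0.58 ± 0.0410. Ddit3, the stress factor CHOP, had 185, 205 and 198 RPKM in the labelled libraries, against 106, 119 and 114 RPKM in the control libraries and rose by 0.80 ± 0.0555. Beside Adm2 and Gdf15, named above, Ppp1r15a, which restores translation, rose by 1.12 and the proline synthesis gene Aldh18a1 by 0.95. Trib3 rose by 0.64 and the glutathione-degrading enzyme gene Chac1 by 0.78. Atf4, Asns, Ddit3, Trib3 and Chac1 were named after their values were seen.

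Cytosolic aminoacyl-tRNA synthetases, which charge tRNAs, were higher nearly throughout: of 20 genes 19 rose and 0 fell (median 0.43), and their summed level was 803 to 828 RPKM in labelled and 586 to 611 RPKM in control libraries. Gars, for glycine, had 113, 111 and 109.8 RPKM in the labelled libraries, against 68.1, 73.3 and 66.5 RPKM in the control libraries, without overlap (0.68 ± 0.0422). Eprs rose by 0.71, Cars by 0.66 and Nars by 0.58. The C/EBP-ATF response element, TGATGNAA on either strand, occurs in the 250 bases before the start of 5 of 17 ATF4 response genes (29.4%) and of 3 of 12 synthetase genes (25%) with a promoter entry, against 1.78% of all tested protein-coding genes. It occurs at like shares in genes at least 2-fold higher (3 of 90, 3.33%) and at least 2-fold lower (7 of 228, 3.07%). Of lists that were mostly lower, 1 of 17 fibroblast and preadipocyte markers and 1 of 12 proteoglycan genes hold it. Windows are shown for 2 members and for Chchd10, one of the 25 largest rises, from RefSeq on GRCm38.p6 with the element in capitals.
Chac1 (chr2:119351023-119351082, plus strand): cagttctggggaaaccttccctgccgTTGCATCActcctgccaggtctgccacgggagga
Gars (chr6:55037941-55038000, plus strand): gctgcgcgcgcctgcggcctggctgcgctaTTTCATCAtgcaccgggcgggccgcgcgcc
Chchd10 (chr10:75933025-75933084, plus strand): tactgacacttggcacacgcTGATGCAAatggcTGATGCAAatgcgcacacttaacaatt
The element starts 193 bases before the start of Chac1 and 30 bases before that of Gars, and Chchd10 holds it at 85 and at 72 bases. The forkhead core GTAAACA, on either strand, occurred in 4 of 90 promoters of genes at least 2-fold higher (4.44%), in 4 of 228 of genes at least 2-fold lower (1.75%) and in 2.06% of all tested protein-coding promoters.

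Other stress lists were mixed. Serine synthesis and one-carbon genes showed 8 rises and 3 falls among 18 genes (median 0.21), with rises of Mthfd1l (1.23), Aldh1l2 (0.82), Psph (0.74) and Ahcy (1.36, 81.9% of the transcript in copies). Phgdh, the entry enzyme of serine synthesis, had 47.1, 48.9 and 50.6 RPKM in the labelled libraries, against 77.4, 75.1 and 80.5 RPKM in the control libraries and fell (-0.66 ± 0.0414), with Mat2a (-0.37) and Mthfd2l (-0.26). Amino acid transporters gave 9 rises and 8 falls among 22 genes (median 0.02), from Slc36a2 (1.20), the cystine carrier gene Slc7a11 (0.90) and Slc7a1 (0.75) to the fall of Slc38a4 (-0.97). Folding and unfolded protein response genes of the endoplasmic reticulum had 5 rises and 7 falls among 23 genes (median -0.05): the sensor gene Ern1 (0.88), Herpud1 (0.76), Edem1 (0.40), Hspa5 (0.27) and Sel1l (0.20) rose, and the chaperone genes Calr (-0.56) and Pdia4 (-0.45) fell. Of 22 cytosolic and mitochondrial chaperones 15 rose and 3 fell (median 0.18), with Hspb1 (1.16, 51.8% in copies), Hspa9 (0.58) and Hspe1 (0.57) higher and Cryab (-1.18), Dnajb4 (-0.24) and Hspa1b (-0.23, 78.5% in copies) lower. NRF2, glutathione and thioredoxin genes showed 8 rises and 10 falls among 26 genes (median 0.00), with falls of Sod3 (-1.24), Gsta4 (-0.65), Nqo1 (-0.62) and Gpx1 (-0.53). Of 15 p53 targets 7 rose and 3 fell (median 0.13), among them the cell cycle inhibitor gene Cdkn1a, which had 205, 219.6 and 215 RPKM in the labelled libraries, against 98.5, 108 and 102 RPKM in the control libraries (1.05 ± 0.0461). Gadd45a and Bax rose (1.01 and 0.49), and Fas, Sesn1 and Plk2 fell (-0.77, -0.46 and -0.22). Metal handling genes gave 4 rises and 4 falls among 16 genes (median -0.09), with Mt2 (0.89, 41.5% in copies) and Tfrc (0.55) higher and Steap4 (-1.75), Steap3 (-0.74), Cp (-0.51) and Slc39a14 (-0.41) lower.

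Nuclear genes of oxidative phosphorylation were slightly higher. Of 37 complex I genes 29 rose and 1 fell (median 0.24), of 25 genes of complexes III and IV 19 rose and 1 fell (median 0.25) and of 16 ATP synthase genes 12 rose and 1 fell (median 0.20). Cox6a2 and Cox7a1, cytochrome oxidase subunits of muscle and brown fat, rose most. Cox6a2 had 38.7, 44.2 and 38.1 RPKM in the labelled libraries, against 16.4, 17.5 and 15.3 RPKM in the control libraries (log2 fold change 1.27 ± 0.0723 SE, adjusted p = 3.14e-05). Cox7a1 had 20.7, 26.01 and 24.2 RPKM in the labelled libraries, against 10.8, 10.5 and 8.46 RPKM in the control libraries (1.22 ± 0.112). The groups were apart in both, with a spread over the 3 labelled libraries that was small beside the difference. Cyc1 rose by 0.61 and Cycs, with 30.3% in copies, by 0.75, and Ndufb6 (0.42, 39.0% in copies), Ndufa5 (0.41), Ndufs7 (0.39) and Atp5a1 (0.42) by less. Cox8b (-0.22), Ndufa7 (-0.13) and the ATPase inhibitor gene Atpif1 (-0.40, 33.1% in copies) fell. By contrast, mitochondrially encoded mRNAs had 1 rise and 3 falls among 13 genes (median -0.01), with mt-Co1 (0.19, 31.3% in copies) higher and mt-Nd1 (-0.30), mt-Nd2 (-0.29) and mt-Nd4 (-0.18, 63.6% in copies) lower. Under quantile normalization mt-Nd1 and mt-Nd2 turned to 0.14 and 0.06, neither passing.

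Genes that make and import mitochondrial proteins were higher too. Mitochondrial ribosomal proteins showed 54 rises and 2 falls among 77 genes (median 0.20), with Mrpl46 (0.69) and Mrps28 (0.45) higher and Mrps6 (-0.69) and Mrps25 (-0.14, 75.7% in copies) lower. Import and cristae genes gave 22 rises and 2 falls among 35 genes (median 0.19). Beside Chchd10, the channel genes Tomm40 (0.62) and Timm50 (0.59) rose, and Apool (-0.41) and Timm29 (-0.18) fell. Of 12 measured brown fat and thermogenic genes 8 rose and 3 fell (median 0.50). Adrb3, the receptor through which noradrenaline drives lipolysis in rodent fat, had 1.19, 1.73 and 1.35 RPKM in the labelled libraries, against 9.57, 7.04 and 9.47 RPKM in the control libraries, without overlap (log2 fold change -2.25 ± 0.145 SE, adjusted p = 4.81e-05). The transcription factor gene Ebf2 fell (-0.46).

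Lipid synthesis genes were more often higher than lower, with exceptions at high level. Of 24 genes of cholesterol synthesis and SREBP2 targets 16 rose and 1 fell (median 0.31). Sqle, which oxidises squalene, had 64.1, 65.5 and 65.96 RPKM in the labelled libraries, against 31.8, 37.2 and 33.1 RPKM in the control libraries (log2 fold change 0.93 ± 0.0589 SE, adjusted p = 4.53e-05). Cyp51 rose by 0.85, Lss by 0.76 and Idi1, with 33.3% in copies, by 0.87. Insig1, which restrains SREBP processing, had 146, 149 and 151 RPKM in the labelled libraries, against 184, 212 and 199 RPKM in the control libraries and fell (-0.41 ± 0.0534). Fatty acid synthesis, elongation and desaturation had 10 rises and 2 falls among 19 genes (median 0.19): besides both elongases the desaturase genes Scd3 (1.139) and Scd2 (0.54) rose, and Scd1 and Srebf1 (-0.16) fell. The list's summed level, in which Scd1 is the largest term, was 9472 to 9598 RPKM in labelled and 10510.0 to 11847 RPKM in control libraries.

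Dgat2, which makes triglyceride, had 649, 694 and 669 RPKM in the labelled libraries, against 294, 336 and 304 RPKM in the control libraries, with the groups apart (log2 fold change 1.11 ± 0.0556 SE, adjusted p = 2.01e-05). Lpin3, a phosphatidate phosphatase gene, rose by 1.40 and Agpat5 by 0.39, while Gpat4 fell (-0.39), in a list that showed 6 rises and 1 fall among 15 genes (median 0.02). Lipid droplet proteins and lipases gave 5 rises and 7 falls among 18 genes (median -0.05). G0s2, an inhibitor of adipose triglyceride lipase, had 505, 548 and 537 RPKM in the labelled libraries, against 205, 249 and 214 RPKM in the control libraries (1.25 ± 0.0742). Cidec, a droplet protein of white fat related to Cidea, had 1283, 1398 and 1320.3 RPKM in the labelled libraries, against 2659, 2593 and 2774 RPKM in the control libraries (-1.004 ± 0.0469). These 2 paralogues moved in opposite directions, each without overlap between groups. Plin2 rose by 0.77, Abhd6 by 0.41 and Hilpda by 0.24. Fatty acid uptake and binding had 4 rises and 2 falls among 15 genes (median 0.01), with Fabp5 (0.76), Acsl4 (0.58) and the lipase inhibitor gene Angptl4 (0.31) higher and the fatty acid carrier gene Slc27a1 (-1.10) lower. Fatty acid oxidation showed 9 rises and 2 falls among 22 genes (median 0.11): Hadha (0.34) and Etfb (0.31, 70.1% in copies) rose, and Cpt1a (-0.64) and Cpt2 (-0.19), the carnitine-dependent entry steps, fell. Branched-chain amino acid catabolism gave 7 rises and 6 falls among 22 genes (median 0.03), from Dbt (0.75) and Bckdhb (0.60) to Acadsb (-0.45) and Auh (-0.33).

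Hallmark genes of the mature white fat cell were more often lower than higher. Of 18 adipocyte hallmark genes 4 rose and 10 fell (median -0.21). Adipoq, the hormone adiponectin, had 825, 800.1 and 780.4 RPKM in the labelled libraries, against 2085, 1962 and 1956 RPKM in the control libraries, far apart (log2 fold change -1.32 ± 0.0411 SE, adjusted p = 5.02e-06). Cfd, the secreted protease adipsin, had 2645, 2720.0 and 2783 RPKM in the labelled libraries, against 4575, 4394 and 4478 RPKM in the control libraries and fell (-0.72 ± 0.0392). Pparg, the nuclear receptor that drives fat cell formation, had 96.5, 96.1 and 96.7 RPKM in the labelled libraries, against 120.1, 117 and 116 RPKM in the control libraries and fell (-0.29 ± 0.0286). Against the majority, Slc2a4, Trarg1, Cebpa (0.31) and Adig (0.14) rose. Cebpa, which sustains the mature state, had 171, 215 and 181 RPKM in the labelled libraries, against 143, 153 and 160.4 RPKM in the control libraries. Pparg was named after its values were seen. Adipokines and secreted factors had 6 rises and 8 falls among 20 genes (median 0.00), with Lcn2 (1.23) higher and, beside Apod and Adipoq, Serpinf1 (-1.06) lower.

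Transcription factors of adipogenesis showed 10 rises and 12 falls among 26 genes (median -0.07). Cebpb, an early factor of the programme, had 135, 162 and 148 RPKM in the labelled libraries, against 69.3, 69.3 and 80.8 RPKM in the control libraries (log2 fold change 1.02 ± 0.0841 SE, adjusted p = 0.000132). Zfp521, a repressor of the programme, had 0.818, 0.830 and 0.824 RPKM in the labelled libraries, against 3.91, 3.14 and 3.06 RPKM in the control libraries (-1.54 ± 0.0991). Neither gene had overlapping groups. Tle3 rose by 0.69 and Klf5 fell (-0.56). Of 14 glucocorticoid-responsive genes 8 rose and 3 fell (median 0.28), with Fkbp5 (0.46) and Per1 (0.39) higher and Zbtb16 (-0.32), Errfi1 (-0.24) and the receptor gene Nr3c1 (-0.17) lower. Caveolins and cavins, which form the pits of the fat cell surface, gave 2 rises and 6 falls among 8 genes (median -0.29). Cav1 (-0.54), Cavin1 (-0.35), Ehd2 (-0.34) and Cavin3 (-0.31) fell, and Cavin2 (0.24) and Pacsin2 (0.20) rose.

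Stromal genes fell broadly. Of 21 measured fibroblast and preadipocyte markers 0 rose and 20 fell (median -0.99). The summed level of all 26 listed markers was 799 to 830.2 RPKM in labelled and 1609.8 to 1814 RPKM in control libraries. Pdgfra had 4.44, 4.27 and 4.37 RPKM in the labelled libraries, against 33.1, 27.5 and 31.6 RPKM in the control libraries. Dlk1, the preadipocyte factor, had 15.5, 15.7 and 15.2 RPKM in the labelled libraries, against 66.8, 52.3 and 69.1 RPKM in the control libraries. The groups were apart in both (-2.68 ± 0.0696 for Pdgfra and -1.97 ± 0.101 for Dlk1). The intermediate filament gene Vim fell less (-0.50).

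The matrix itself fell with these markers. Collagens had 3 rises and 18 falls among 23 genes (median -0.61), small leucine-rich proteoglycans showed 2 rises and 10 falls among 12 genes (median -0.95), and matricellular and elastic fibre proteins gave 2 rises and 18 falls among 21 genes (median -0.72). Col3a1, a fibrillar collagen, had 80.4, 76.4 and 77.3 RPKM in the labelled libraries, against 204, 176 and 194 RPKM in the control libraries (log2 fold change -1.29 ± 0.0578 SE, adjusted p = 1.46e-05). Dcn, the collagen-binding decorin, had 28.1, 24.6 and 24.7 RPKM in the labelled libraries, against 197, 151 and 176 RPKM in the control libraries. Postn, periostin, had 12.5, 11.8 and 11.98 RPKM in the labelled libraries, against 55.9, 46.03 and 50.2 RPKM in the control libraries and fell (-2.02 ± 0.0698). In these 3 genes no labelled library reached a control library. Lum fell to 4.00, 2.68 and 3.05 RPKM in labelled libraries, against 27.4, 20.4 and 25.4 RPKM in control libraries, and Aspn (-2.30). Col11a1 (-1.64), Col28a1 (-1.55), Col16a1 (-1.29), Ltbp1 (-2.08), Thbs1 (-1.70) and Fbln1 (-1.59) fell as well. A few members rose, namely Col27a1 (0.67), Col20a1 (0.54), Col15a1 (0.50), Chad, Ltbp3 (0.35), Tsku and Spp1. Spp1, osteopontin, had 36.9, 37.5 and 35.5 RPKM in the labelled libraries, against 13.8, 14.7 and 13.1 RPKM in the control libraries (1.37 ± 0.0494). Tsku, tsukushi, had 54.6, 59.3 and 62.9 RPKM in the labelled libraries, against 21.9, 28.3 and 23.9 RPKM in the control libraries (1.24 ± 0.0965).

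Enzymes that shape the matrix were lower too. Of 22 matrix proteases and inhibitors 1 rose and 21 fell (median -0.81). Mmp2, a gelatinase, had 21.7, 23.4 and 21.6 RPKM in the labelled libraries, against 112, 99.4 and 113 RPKM in the control libraries (log2 fold change -2.26 ± 0.0603 SE, adjusted p = 3.18e-06). Its inhibitor gene Timp2 had 20.1, 19.04 and 18.1 RPKM in the labelled libraries, against 94.3, 77.8 and 87.9 RPKM in the control libraries (-2.15 ± 0.0742). Both fell without overlap between groups. Reck (-1.75) and Adamts1 (-1.64) fell, and Mmp11 rose (0.61). Lysyl oxidases and collagen-modifying genes had 4 rises and 12 falls among 18 genes (median -0.33): Lox, which cross-links collagen, fell (-1.26), P3h3 (-1.49), Pcolce (-1.21) and Bmp1 (-1.06). The prolyl hydroxylase genes P4ha1 (0.89) and P4ha2 (0.49) and the lysyl hydroxylase genes Plod1 (0.35) and Plod3 (0.14) rose. Laminins, integrins and basement membrane genes showed 6 rises and 10 falls among 20 genes (median -0.15), with falls of Nid2 (-2.05), Itgb3 (-1.49) and Hspg2 (-0.90).

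Of 24 genes of the actin cytoskeleton 1 rose and 15 fell (median -0.43), with falls of Cnn2 (-1.53), Myh11 (-1.38), Myl9 (-1.33) and Tpm1 (-0.86) and a rise of Tagln2 (0.56). Intermediate filaments gave 5 rises and 2 falls among 8 genes (median 0.49), where Krt79, Krt18, Des and Krt80 (0.51) rose, and Vim and Lmna (-0.33) fell.

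Ligands and receptors of the main growth pathways were lower in most lists. Wnt ligands, receptors and antagonists had 1 rise and 14 falls among 15 genes (median -0.59). Wnt5a, a ligand of the non-canonical branch, had 1.57, 1.56 and 1.74 RPKM in the labelled libraries, against 4.22, 4.21 and 3.89 RPKM in the control libraries (-1.12 ± 0.0670). The receptor genes Fzd2 (-1.18) and Fzd1 (-0.97) fell and Fzd8 rose (0.48). The TGF-beta and BMP pathway showed 2 rises and 14 falls among 26 genes (median -0.30), with the antagonists Chrdl1 (-1.63) and Fst (-1.63) lower and the receptor gene Tgfbr2 (0.60) and the ligand gene Tgfb1 (0.28) higher. The IGF axis gave 1 rise and 10 falls among 12 genes (median -0.58). Igfbp3, which binds IGF in serum, had 5.61, 5.49 and 5.36 RPKM in the labelled libraries, against 21.7, 19.1 and 21.4 RPKM in the control libraries, and Igfbp4 had 161, 171 and 170.5 RPKM in the labelled libraries, against 111, 122 and 116 RPKM in the control libraries. Igfbp3 fell (-1.82) and Igfbp4 rose (0.53), each without overlap. Igfbp7 (-1.47), Igf1 (-1.06) and Igf2 (-1.36, 76.2% in copies) fell. PDGF, FGF, VEGF and pleiotrophin signalling had 2 rises and 18 falls among 25 genes (median -0.50), and of the members Gfra1 and Vegfa were those that rose. Semaphorins, ephrins and guidance genes showed 4 rises and 16 falls among 27 genes (median -0.38), with Slit3 (-1.44), Slit2 (-1.40) and Sema3c (-1.36) lower and the netrin receptor gene Unc5b (1.17), Sema4a (0.91), Sema6d (0.19) and Plxna1 (0.15) higher.

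The other signalling lists were divided. The Notch pathway gave 1 rise and 3 falls among 10 genes (median 0.03), with Notch1 (0.61) higher and Notch2 (-0.43) and Jag1 (-0.36) lower. Insulin signalling, FoxO and mTOR regulators had 7 rises and 12 falls among 30 genes (median -0.07). There Sesn2, a sensor of leucine, rose (0.88), and Sesn3 (-0.89) and Socs3 (-0.92) fell. Immediate early genes showed 5 rises and 6 falls among 19 genes (median -0.11): Fosl2 (0.64), Atf3 (0.44), Myc (0.38), Ier2 (0.36) and Fosl1 (0.30, 62.5% in copies) rose, and Klf2 (-0.72), Egr1 (-0.68) and Dusp5 (-0.63) fell. Calcium handling gave 6 rises and 4 falls among 20 genes (median 0.05), with Atp2a3 and the release channel gene Itpr2 (0.77) higher and Orai2 (-0.83), Atp2b1 (-0.52) and Stim1 (-0.21) lower.

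Immune genes were lower, with one abundant exception. Chemokines and cytokines had 1 rise and 11 falls among 17 genes (median -0.69). Cxcl12 had 7.33, 6.71 and 6.71 RPKM in the labelled libraries, against 40.9, 34.4 and 37.7 RPKM in the control libraries, and Cxcl13 (-1.81) and Ccl2 (-1.10) fell with it. Mif, the macrophage migration inhibitory factor, had 901, 909 and 934 RPKM in the labelled libraries, against 388, 460.2 and 409 RPKM in the control libraries and rose by 1.13 ± 0.0628, with 63.0% of its transcript in copies. The list's summed level, in which Mif is the largest term, was 961 to 992 RPKM in labelled and 517 to 572 RPKM in control libraries. Complement and coagulation showed 2 rises and 16 falls among 22 genes (median -0.55), with Thbd (-1.72), C1ra (-1.53) and Plat (-1.42) lower and F5 (0.79) higher. Interferon response and antigen presentation gave 0 rises and 11 falls among 26 genes (median -0.28). B2m, the light chain of class I molecules, had 379, 381 and 367 RPKM in the labelled libraries, against 681, 589 and 680.3 RPKM in the control libraries, without overlap (log2 fold change -0.79 ± 0.0611 SE, adjusted p = 0.0001), and Ifit3 (-0.74), Gbp2 (-0.73) and H2-D1 (-0.64) fell.

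Genes of mitosis and DNA replication were more often higher than lower. Of 33 cell cycle genes 20 rose and 5 fell (median 0.63) and of 26 DNA replication genes 15 rose and 1 fell (median 0.28). The summed level of the cell cycle list overlapped between groups, at 160 to 168 RPKM in labelled and 161 to 170 RPKM in control libraries. That of the DNA replication list was 126 to 130 RPKM in labelled and 105 to 106 RPKM in control libraries. The mitotic kinase gene Plk1 had 2.80, 2.66 and 2.38 RPKM in the labelled libraries, against 0.849, 0.840 and 0.872 RPKM in the control libraries (log2 fold change 1.20 ± 0.0829 SE, adjusted p = 6.35e-05). The nucleotide reductase gene Rrm2 had 2.63, 1.84 and 2.34 RPKM in the labelled libraries, against 1.29, 0.979 and 0.961 RPKM in the control libraries (0.81 ± 0.136). Ccnd1, the cyclin of G1 entry, had 7.17, 6.75 and 6.89 RPKM in the labelled libraries, against 16.4, 14.7 and 15.7 RPKM in the control libraries, on the other side (-1.11 ± 0.0511, 29.5% in copies). Groups did not overlap in any of the 3. Ccnb2 (1.01), Cdc20 (0.91), Mcm5 (0.73), Gins1 (0.66) and Fen1 (0.60, 80.5% in copies) rose. Ccnd3 (-0.55), Ccnd2 (-0.44), E2f1 (-0.36), Cdk6 (-0.29) and Gins2 (-0.15, 70.7% in copies) fell. Replication-dependent histones had 3 rises and 13 falls among 36 genes (median -0.52). Hist1h4h had 56.6, 61.1 and 54.5 RPKM in the labelled libraries, against 184, 146 and 180.4 RPKM in the control libraries (-1.55 ± 0.0920). Hist1h4n, Hist1h4m and Hist1h2be fell (-1.43, -1.25 and -1.11), and Hist2h2bb, Hist1h4k and Hist1h1c rose (1.01, 0.64 and 0.15). Copies cover 93.5 to 100% of Hist1h4n, Hist1h4m and Hist2h2bb. By chromosome, 13 of the 27 measured histone genes of chromosome 13 fell and 2 rose (median -0.72), whereas of 8 on chromosome 3, 1 rose and 0 fell (median 0.06).

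Genes of ribosomes and of protein turnover were higher by small amounts. Of the 597 tested genes averaging 100 RPKM or more, 314 were higher and 120 lower (median 0.17), and of the 2350 between 20 and 100 RPKM, 918 were higher and 526 lower (median 0.08). Of 79 measured cytosolic ribosomal proteins 66 rose and 0 fell (median 0.28). The summed level of all 82 listed genes was 34476 to 35535 RPKM in labelled and 28456 to 29246 RPKM in control libraries. Rpl30 (0.46), Rpl13a (0.71) and Rpsa (0.51) rose but are uncertain, with 16.7%, 59.4% and 45.7% in copies. Ribosome biogenesis and MYC targets showed 24 rises and 2 falls among 32 genes (median 0.23): Srm (0.49) and Mrto4 (0.47) rose, and Mxd4 (-0.63) and Mxd1 (-0.51), which oppose Myc, fell. Proteasome subunits gave 27 rises and 1 fall among 45 genes (median 0.12), with Psmg1 (0.51) and Psma1 (0.41) higher and Psme4 (-0.22) lower. Nucleotide and polyamine synthesis had 16 rises and 4 falls among 30 genes (median 0.16), with Impdh1 (0.81) higher and Prps2 (-0.63), Prps1 (-0.41), Ctps2 (-0.26) and Sms (-0.71, 29.6% in copies) lower. Processed pseudogenes, close in sequence to their parent genes, gave 149 higher and 42 lower of 734. Their share of rises was below that of all genes tested (23.2%), and their share of falls was far below (21.4%).

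Lysosomal hydrolases and cathepsins showed 2 rises and 26 falls among 37 genes (median -0.27). The members that rose were Npc1, which exports cholesterol from lysosomes, with 12.8, 13.4 and 14.7 RPKM in the labelled libraries, against 5.43, 6.38 and 5.83 RPKM in the control libraries (1.15 ± 0.0739), and the cathepsin gene Ctsl, with 793, 839 and 890.4 RPKM in the labelled libraries, against 429, 497 and 449 RPKM in the control libraries (0.88 ± 0.0664, 28.6% in copies). Ctsf (-1.30) and Ids (-0.90) fell. V-ATPase subunits gave 9 rises and 4 falls among 18 genes (median 0.15), with Atp6v1g1 (0.54, 31.4% in copies) and Atp6v0e (0.38) higher and Atp6ap2 (-0.67), Atp6v0d1 (-0.42), Atp6v0a1 (-0.28) and Atp6ap1 (-0.09) lower. Autophagy machinery had 9 rises and 12 falls among 36 genes (median -0.03), from the regulator gene Tfeb (0.60) and Optn (0.49) to the falls of Wipi1 (-0.89) and Gabarapl1 (-0.78).

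Clock genes showed 8 rises and 5 falls among 17 genes (median 0.21). Bhlhe40, a repressor of the clock that also answers to low oxygen, had 30.3, 31.9 and 32.2 RPKM in the labelled libraries, against 12.3, 14.7 and 11.9 RPKM in the control libraries (1.25 ± 0.0778). Ciart (0.88) and Per2 (0.71) rose too, and Rora (-0.77), Nr1d1 (-0.50), Bhlhe41 (-0.43), Nr1d2 (-0.40) and Dbp (-0.40, 29.4% in copies) fell. Imprinted genes gave 1 rise and 12 falls among 15 genes (median -0.50), with Dlk1, Igf2 and Ndn (-1.07) lower. Peg10, a retrotransposon-derived gene, had 9.82, 8.01 and 9.02 RPKM in the labelled libraries, against 4.81, 4.78 and 4.02 RPKM in the control libraries and was the member that rose (0.91 ± 0.0929).

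Among long non-coding genes the largest changes were the rises of Gm13398 (6.21, 6.65 and 5.78 RPKM in labelled and 0.376, 0.448 and 0.526 RPKM in control libraries, log2 fold change 2.82), Gm16277 (2.48) and Gm44507 (2.45) and the falls of Gm43539 (-2.61), Gm16567 (-2.54) and Gm28932 (-2.37). Exons of other genes overlap 100% of Gm16567, 77.4% of Gm43539, 62.8% of Gm16277 and 61.6% of Gm28932. The strand of the libraries is not given in the sources used here, so reads of these genes and of their overlapping partners cannot be told apart.

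Changes were spread over the chromosomes, and the 3 of largest median shift were picked after their values were seen. Over all protein-coding genes tested the median was 0.01, with 25.7% higher and 23.9% lower. On chromosome 13 the median was -0.11 (65 higher and 146 lower of 431), and on chromosome X it was -0.11 (55 higher and 146 lower of 353). On chromosome 15 it was 0.11 (181 higher and 94 lower of 446). Chromosomes 6 (106 higher and 173 lower of 529) and 8 (125 higher and 189 lower of 646) leaned downward too, each with a median of -0.04. As differences from the mean of the controls, the chromosome medians of the 3 labelled libraries were -0.10, -0.12 and -0.09 for chromosome 13, 0.10, 0.11 and 0.11 for chromosome 15 and -0.13, -0.14 and -0.10 for chromosome X. Those of the 3 control libraries stayed between -0.02 and 0.02 on these chromosomes. Foxk1 knockdown gave medians of 0.03, 0.03 and 0.10 and Foxk2 overexpression 0.05, 0.00 and -0.03 for chromosomes 13, 15 and X. Shifts of this size also occurred elsewhere: Foxk2 overexpression had medians of 0.15 on chromosome 16 and 0.12 on chromosome 18. In labelled libraries the medians of chromosomes 16 and 18 were 0.00 and 0.03. When chromosomes 13 and 15 were split into 8 runs of equal gene number, the run from Hist1h4k to Tubb2a on chromosome 13 had a median of -0.39 (25 of 54 genes lower). On chromosome 15 the first run, Selenop to Cpq, had a median of 0.00 and the others 0.08 to 0.17. What sets chromosomes 13, 15 and X apart in labelled libraries was not tested.

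**Figure D4:**
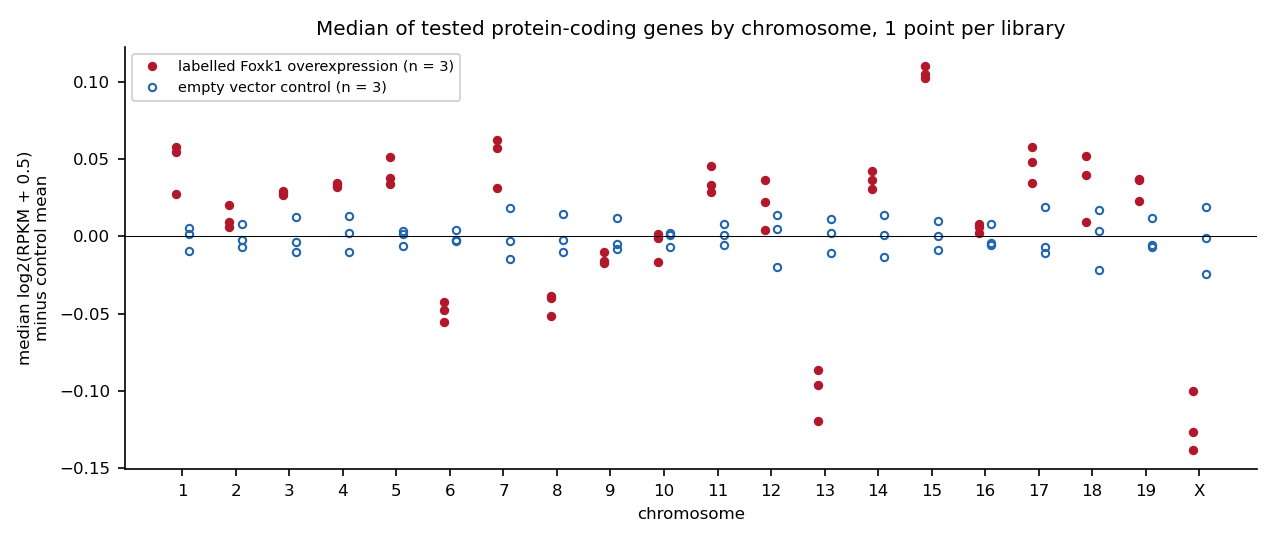
Median log2 difference of protein-coding genes from the mean of the control libraries, by chromosome, with points for labelled and control libraries. On chromosomes 13 and X the 3 labelled libraries lie below, and on chromosome 15 above, the control libraries, which stay between -0.02 and 0.02 there.

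Knockdown of Foxk1, measured with its own controls, moved many of these genes the other way. There 3022 genes were higher (21.2% of genes tested) and 2487 lower (17.4%). These knockdown calls came from a limma fit over all 20 libraries, on the genes kept by the 6 libraries of the main comparison. In that fit the labelled comparison gave 3840 higher and 3615 lower genes. The labelled calls counted below are those of the fit on 6 libraries, so the counts set side by side come from unlike fits. Of the 3314 genes higher in labelled libraries, 1309 were lower in knockdown (39.5%, and 52.6% of those lower in knockdown) and 229 were higher. Of the 3050 lower in labelled libraries, 1669 were higher in knockdown (54.7%, and 55.2% of those higher in knockdown) and 255 were lower. Among the 25 genes of largest fall, 25 of 25 were higher in knockdown, while of the 25 of largest rise 14 were lower, 2 were higher and 9 did not pass. The difference between both effects, tested as a contrast of contrasts in limma over all 20 libraries, passed for 7593 genes (53.2%). Foxk1 itself fell in both comparisons.

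The lists show the same contrast in their own values. In knockdown, of the glycolysis genes 2 rose and 13 fell (median -0.78), and of the hypoxia genes 4 rose and 16 fell (median -0.51). Egln3 changed by -2.69, Ero1l by -2.18, Ak4 by -2.44 and Ldha by -1.36 there. ATF4 response genes had 0 rises and 15 falls (median -0.41), cholesterol synthesis showed 0 rises and 24 falls (median -0.60) and fibroblast markers gave 21 rises and 0 falls (median 0.72). Clec3b changed by 1.40, Dcn by 1.45 and Pdgfra by 1.10. The contrast did not hold throughout. Scd1 fell in both comparisons (-0.39 in labelled libraries and -0.83 in knockdown), as did Cidec (-1.004 and -0.67), Pparg (-0.29 and -0.23) and Insig1 (-0.41 and -0.80). Adipocyte hallmark genes had 0 rises and 12 falls in knockdown (median -0.26). Ribosomal proteins, of which 66 of 79 rose in labelled libraries, showed 23 rises and 3 falls (median 0.07), and the cell cycle list gave 6 rises and 2 falls (median 0.11). Elovl3 (-0.15, adjusted p = 0.335), Adm2 (0.01, adjusted p = 0.957) and Cyp2b10 (0.00, adjusted p = 0.981) did not pass in knockdown.

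**Figure D5:**
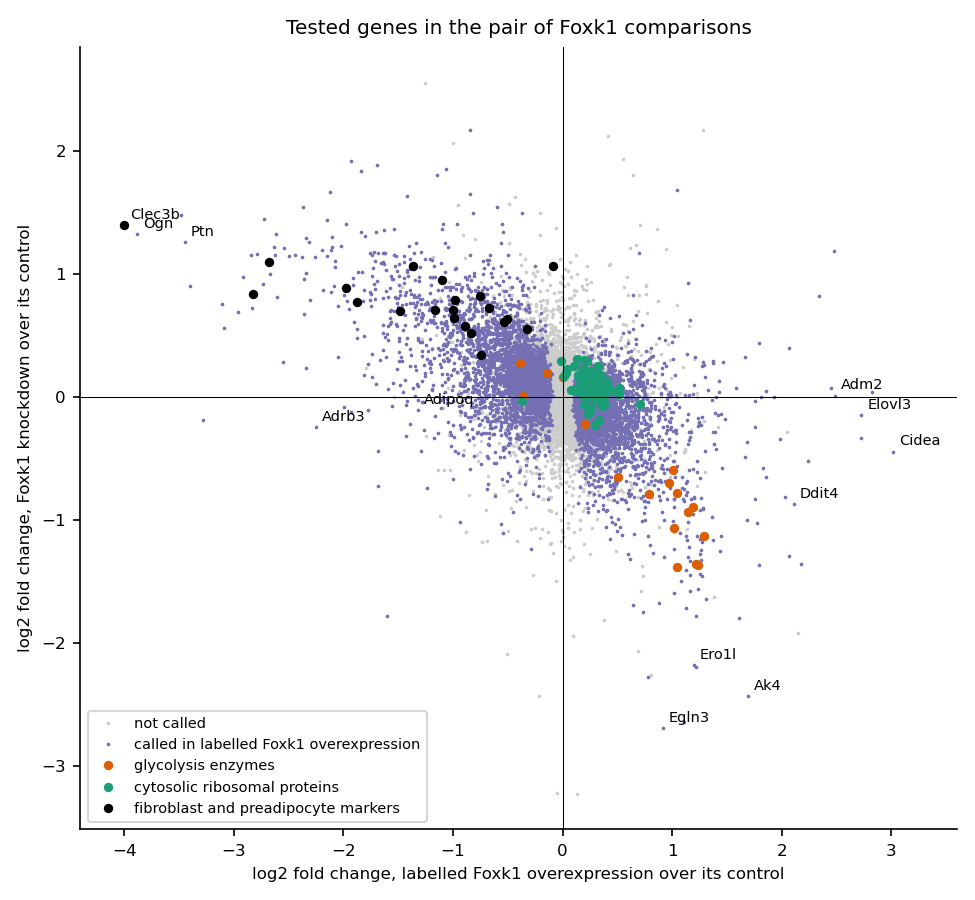
Log2 fold change of each gene tested in Foxk1 knockdown (vertical axis) against that in libraries labelled Foxk1 overexpression (horizontal axis), with genes called in labelled libraries, glycolysis enzymes, ribosomal proteins and fibroblast and preadipocyte markers coloured. Fibroblast markers lie at the upper left (Clec3b at -4.000 and 1.40) and glycolysis enzymes mostly at the lower right. Ribosomal proteins lie mostly right of 0, and around 0 on the vertical axis.

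Foxk2 overexpression, against its own controls, moved many of the same genes the same way, with 3509 genes higher (24.6% of genes tested) and 3332 lower (23.3%). Of the genes higher in labelled libraries 1967 were also higher there (59.4%, and 56.1% of those higher with Foxk2), and of those lower 1960 were also lower (64.3%, and 58.8% of those lower with Foxk2). The opposite direction was seen in 141 and 151 genes. All 25 largest rises and all 25 largest falls of the labelled libraries passed in the same direction with Foxk2. The Foxk2 libraries differ in depth and in number from the Foxk1 libraries. Calls for Foxk2 overexpression came, like those for knockdown, from the fit over all 20 libraries. The difference between both effects passed for 3916 genes (27.4%) in the same limma model. Cidea changed by 4.34 with Foxk2, against 3.02 in labelled libraries, and Gfra1 by 3.10, against 2.34. Clec3b changed by -2.71 with Foxk2, Ogn by -1.74 and Ptn by -1.82. Foxk1 was lower in Foxk2 overexpression as well (-0.66).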

How the data were processed

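RNA-seq of 20 libraries of 3T3-L1 adipocytes was used, 6 of them for the main comparison. The authors deposited 1 table of RPKM values for 48440 genes. Per the submitters' processing notes, mm10, HISAT2 (2.1.0), Picard (1.141), featureCounts from Subread (1.5.1) and edgeR were used, and the strand setting is not given in the sources used here. Lengths and coordinates came from GENCODE M21. Reads recovered from RPKM and exon length were whole within 0.1 read for 318890 of 318890 values above 0 among genes matched with their version. Assigned reads came to 17328261 to 19976807 per library.

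Values were tested as log2(RPKM + 0.5) with limma (3.58.1, R 4.3.3), two-sided, with a mean trend, for genes at 0.5 RPKM or more in at least 2 of the 6 libraries. Benjamini-Hochberg adjustment ran over all 14279 genes tested, with a threshold of 0.05. Calls within Foxk1 knockdown and within Foxk2 overexpression came from a fit of the same genes over all 20 libraries. Differences from knockdown and from Foxk2 overexpression were contrasts of contrasts over all 20 libraries. The median SD of log2 values between replicates was 0.07 in labelled and 0.08 in control libraries. Chi-square per degree of freedom of recovered reads between replicates was 3.14 to 4.54 in labelled and 5.79 to 10.4 in control libraries, above counting error.

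The 77 lists, with 1917 genes of which 1537 were tested, and the members named were chosen with earlier results of these data known. Named were Foxk1, Foxk2, the 25 rises and 25 falls of largest fold change (protein-coding, with no Gm or Rik name, groups apart, the higher one averaging at least 2 RPKM), the 10 highest nuclear protein-coding genes, up to 4 called members of a list with the called members against its majority where these were 5 or fewer, the 10 largest differences in each contrast of contrasts and 6 long non-coding genes. A few results of named genes are not reported here. Genes outside this rule are marked as named after their values were seen. Copies are other genes' transcripts of at least 99% identity over 100 bases or more (BLAST+ 2.17.0), and values of genes with copies are uncertain. The share in copies is not printed for every such gene: among those left unmarked are Cryab (22.6%), Tgm2 (22.6%), Hspe1 (21.6%), Cebpb (21.3%) and Adrb3 (17.2%). Alternatives were the pseudocount, low-value filters, scalings, the samples in the fit, limma's settings, voom on recovered reads, a replicate block and leaving out each library. Tables and plots were made in Python (3.11.15) with pandas (2.3.3) and matplotlib (3.10.9).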

Additional observations from a re-analysis of the deposited data

Results flagged for a closer look

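Effects that differ between comparisons are given here as values of labelled Foxk1 overexpression minus the other effect, on the log2 scale, from the limma model over all 20 libraries. The difference from Foxk1 knockdown passed for 7593 genes and that from Foxk2 overexpression for 3916. The genes Clec3b (-5.40), Ogn (-5.21), Itgbl1 (-4.96), Ptn (-4.71), Pi15 (-4.30), Dcn (-4.18), Apod (-3.99), Fstl1 (-3.95) and Gdpd2 (-3.94) fell in labelled libraries and rose in knockdown, and Ak4 (4.13) did the opposite.

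Against Foxk2 overexpression, Pi15 (-2.23), Ogn (-2.14), Pgm5 (-2.07) and Pdgfrl (-1.90) fell further in labelled libraries. The difference was -2.71 for Acaa1b, a peroxisomal thiolase gene, -2.52 for Cyp2b10, -2.24 for the apolipoprotein gene Apoc1, -2.17 for Synm, which encodes an intermediate filament protein, -2.13 for Cox8b and -2.01 for Hgd, an enzyme gene of tyrosine breakdown. Cyp2b10 rose in both, by 1.93 in labelled libraries and 4.45 with Foxk2. Acaa1b stood at 0.74 in labelled libraries and 3.44 with Foxk2, Apoc1 at 0.50 and 2.75, Synm at 0.08 and 2.25, and Hgd at 1.03 and 3.04. Cox8b fell in labelled libraries, as given above, whereas its value with Foxk2 was positive.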

How the results depend on the processing

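Counts of at least 2-fold changes depended on the scale: with a pseudocount of 0.1 they were 263 higher and 623 lower, and with voom on recovered reads 315 higher and 704 lower, since a smaller pseudocount, or none, widens the folds of low genes. Without one library in turn they were 162 to 181 higher and 375 to 452 lower. Without one library 2639 to 3005 genes were higher and 2499 to 2861 lower, and under the other alternatives 2987 to 3840 were higher and 2753 to 3615 lower. Foxk1 stayed lower in each alternative run, at -0.31 to -0.25, and at -0.32 to -0.24 without one library. Differences from knockdown passed for 7151 to 8432 genes (7240 to 7442 without one library), and from Foxk2 overexpression for 3363 to 4074 (3498 to 4044 without one library).

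Quantile normalization reversed Scd1 (0.036), mt-Nd1 (0.138) and mt-Nd2 (0.058), and the cause was not tested. The replicate block gave 2987 higher and 2753 lower genes and changed no count by over 1.5 times. Deviations of libraries with the same number correlated at -0.01, -0.0017 and -0.07, so no shared deviation was seen. Such values cannot show whether libraries of the same number were prepared together. Of 411 named genes called, 9 to 23 were no longer called without one library. Over all alternatives the calls lost most often were those of Gins2, Cox8a, Plk2, Arid4a, Ing2, mt-Nd4, Fosl1, Atp6ap1, Plod3 and Dnajb4. Over all named genes 171 values lost the call and 6 gained it. Among list counts 85 values moved and 2995 did not, and among list medians 98 moved and 1442 did not. Scalings put the median of all genes at 0.01 to 0.04. Genes under 1 RPKM were called least, so a missing call there says little.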
